A study of Mus musculus with 24 samples.

Results

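The response of invariant natural killer T (iNKT) cells to an oral lipid antigen is described here in male mice of the wild-type fecal transplant arm. The comparison rests on 6 of the 24 libraries of the series, taken by their labels: the 3 labelled aGC and the 3 labelled PBS among males whose dams received feces from wild-type donors (WT FT). All hold iNKT cells from mesenteric lymph nodes of C57BL/6J animals, taken 24 h after oral gavage of 2 µg alpha-galactosylceramide (aGC) in 200 µL PBS, or of the same volume of vehicle. The text sets beside them the PBS and aGC libraries (3 and 3 each) of WT FT females and of males born to dams given feces of CD1d-knockout donors (KO FT), with the same dose and time. The sources used here do not give the sort gate, the age of the mice, how many mice stand behind a library, or whether replicate libraries are separate mice. P-values therefore measure only the spread among the libraries, and that spread may be technical.

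An iNKT cell carries a T cell receptor with an almost fixed alpha chain, encoded in mice by Trav11 joined to Traj18, that recognises lipids presented by CD1d. aGC is its best known strong agonist, and activated iNKT cells are known for releasing cytokines of several helper types within hours and for dividing later. Resting iNKT cells fall into subsets that resemble helper T cells: iNKT1 with T-bet (Tbx21), iNKT2 with Gata3 and much PLZF (Zbtb16), and iNKT17, which make interleukin 17. Cd8a and Cd8b1 encode the CD8 co-receptor of conventional cytotoxic T cells, which mouse iNKT cells as a rule lack.

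The PBS libraries held 20966152, 17351977 and 21382056 estimated counts and the aGC libraries 14369869, 16346188 and 14414966. Levels are CPM (counts scaled to a common library size) adjusted by TMM, a normalization that evens out differences in RNA composition, and the limit that 0 counts allow in a library, 3 counts, lay between 0.140 and 0.209 CPM and covers counting error only. Across genes, which are not independent replicates, log2 CPM of libraries correlated at 0.982 to 0.987 within a group and at 0.910 to 0.915 between the groups. Replicate libraries nevertheless differed beyond counting noise, with a chi-square of 5.14 to 8.77 per degree of freedom. Xist and the Y-linked Ddx3y matched the labelled sex in all 8 groups.

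The 6 libraries also differed in markers of conventional T cells. Cd8a stood at 287, 281 and 292 CPM in the PBS libraries and at 5.54, 6.2 and 6.9 CPM in the aGC libraries, and Cd8b1 at 573, 574 and 571 against 11.7, 12.3 and 12.9 CPM. Trav11 and its near-identical copy Trav11d made up 60.0 to 60.4% of all TCR alpha variable counts after PBS and 80.7 to 81.0% after aGC, and the other alpha segments summed to 346 to 355 CPM and 96.3 to 101 CPM. Foxp3, the factor of regulatory T cells, was at 18, 17.6 and 17.7 CPM after PBS and 0.739, 0.866 and 1.18 CPM after aGC. The other markers of CD4 and regulatory T cells did not all follow it: of the 7 on that list, Foxp3 included, 2 were higher (Ikzf2 and Il10), 3 lower (Foxp3, Cd4 and Lrrc32) and 2 not called (Zbtb7b and Izumo1r). Ikzf2 averaged 8.52 CPM after PBS and 14.3 CPM after aGC, and the list's sums of 689 to 732 CPM and 640.5 to 710.4 CPM overlapped. The defining iNKT genes Trav11 and Zbtb16 were present in all 6 libraries, at the levels given further on, and the PBS libraries were the richer in CD8, Foxp3 and other alpha chains. In WT FT females these markers stood the other way round: Cd8a averaged 6.3 CPM after PBS and 245 CPM after aGC, with Trav11 shares of 84.6 to 84.9% and 54.0 to 55.2%. KO FT males had 136 CPM of Cd8a after PBS and 7.59 CPM after aGC, the direction of WT FT males. In bulk libraries, fewer cells of a type and less RNA per cell cannot be told apart, and the part of conventional T cells in the results below was not tested. Values are therefore also given for a comparison in which both groups were low in Cd8a: the same 3 aGC libraries of WT FT males against PBS in WT FT females. These groups also differ in sex and in markers listed for other cells. Gamma-delta T cell markers, for example, summed to 1490 to 1520 CPM in the PBS females and 581 to 595 CPM in the aGC males. In the aGC males most of that sum came from the gamma chain genes Tcrg-C1, Tcrg-C2 and Tcrg-C4. The delta chain gene Trdc averaged 1.75 CPM there.

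**Figure D1:**
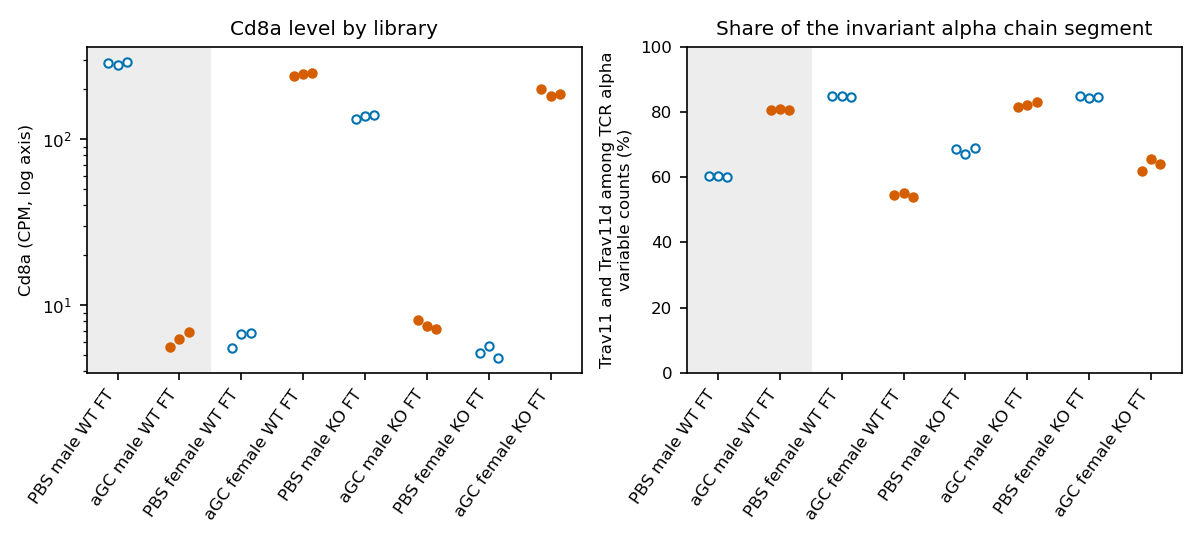
Cd8a level (left, CPM on a log axis) and share of Trav11 and Trav11d among TCR alpha variable counts (right, percent, axis from 0) in the 24 libraries, by group; each point is 1 library, open for PBS and filled for aGC, with WT FT males shaded. Cd8a lies between 281 and 292 CPM in PBS males and between 5.54 and 6.9 CPM in aGC males of the WT FT arm, and WT FT females show the opposite order.

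After aGC, 5054 of 15953 tested genes were higher (31.7%) and 5568 were lower (34.9%) in WT FT males by edgeR's quasi-likelihood test at an adjusted p of 0.05. Of these, 2465 were higher and 2829 lower by more than 2-fold, and 333 and 458 by more than 16-fold. The median log2 change of all tested genes was -0.08. In WT FT males all aGC libraries lay above all PBS libraries for 5300 genes and below them for 6053. Full separation of the groups was therefore common. Where it is stated below for named genes, it does not by itself set them apart from other genes. With so many genes called, each gene list below is described by its counts and median beside these shares, and a count near them is not a result about the list.

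Among the largest changes were genes at or near 0 counts in all 3 libraries of 1 group. Dnph1, which encodes a nucleotide hydrolase, had no count in the PBS libraries and stood at 12.7, 11.4 and 11.2 CPM after aGC, at least 243-fold higher against a floor of 3 counts over the group. Bcat1, the cytosolic transaminase of branched-chain amino acids, stood at 0.738, 0.166 and 0 CPM after PBS and 102, 104 and 99.4 CPM after aGC. In the other direction Ggt1, a gamma-glutamyl transferase, stood at 32.5, 30.4 and 29.4 CPM after PBS and had no count after aGC, at least 432-fold lower. The PBS and aGC libraries of WT FT males did not overlap for any of these genes. Dnph1 and Bcat1 also rose in WT FT females and in KO FT males. Ggt1 went the other way in WT FT females, as Cd8a did, with means of 0.735 CPM after PBS and 28.4 CPM after aGC. In KO FT males Ggt1 fell from 17 to 2.09 CPM. The other large rises were in Cdca5, Gtse1, Lif, Gpm6b, Fam83g, Ccne2, Tnip3, Hk2, Mir155hg and Orc1, and other large falls were in Drc1, Rapgef4, Apol9b, Ampd1, Dapl1, Snx29, Foxp3, Pdlim4 and the CD8 genes. An absence could also set a group apart from all others: 11 genes were under 0.1 CPM in the PBS libraries of WT FT males and above 1 CPM in each of the 7 other groups, and 6 were so in the aGC libraries.

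**Figure D2:**
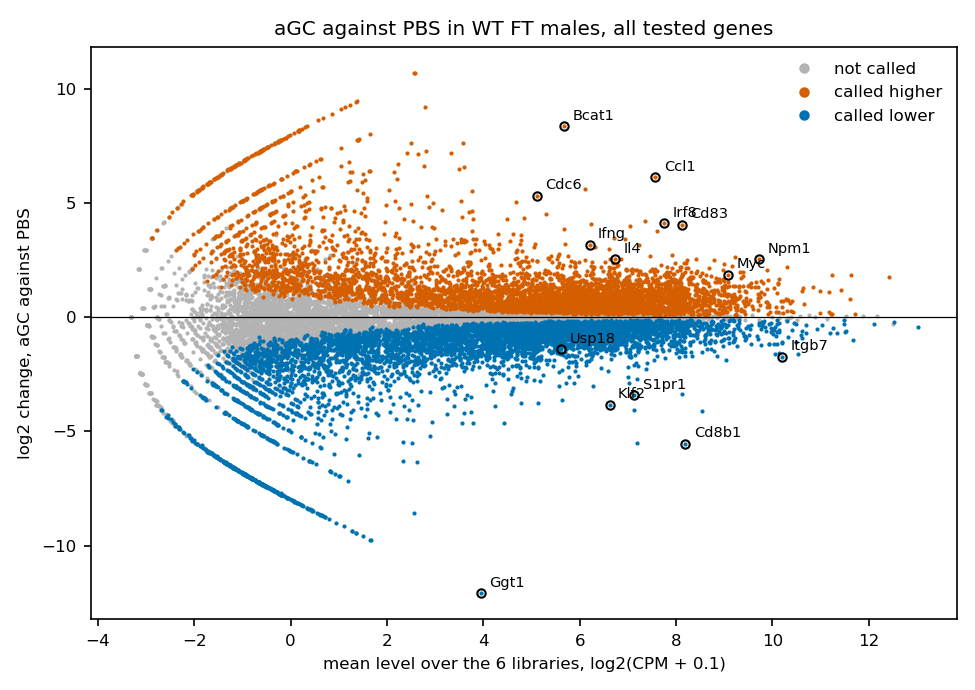
Log2 change after aGC in WT FT males (vertical axis) against the mean level over the 6 libraries (horizontal axis, log2 of CPM + 0.1) for the 15953 tested genes; orange points were called higher, blue points lower, grey points were not called, and circled genes are named. 5054 called genes lie above 0 and 5568 below, and the widest spread is at low levels.

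Cytokine genes rose: of 15 effector cytokine genes tested, 12 were higher and 2 (Ltb and Osm) lower, with a median log2 change of 2.55. Ifng (interferon gamma, chr10:118441046-118445892 in GRCm38) stood at 14.9, 14.4 and 14.8 CPM after PBS and 135, 125 and 138 CPM after aGC. Each aGC library was above each PBS library, 9.05-fold on the group means, with a log2 change of 3.18 ± 0.09 (SE, edgeR adjusted p = 1.17e-18). Il4 (interleukin 4, which drives type 2 responses, chr11:53602982-53618669) stood at 29.1, 31.6 and 32.3 CPM after PBS and 182, 177 and 188 CPM after aGC, 5.87-fold higher (log2 change 2.55 ± 0.09, edgeR adjusted p = 3.25e-17). Both genes were thus high in all 3 aGC libraries. Tnf, an inflammatory cytokine, went from 30.2, 27.2 and 28.6 CPM to 159, 179.7 and 164 CPM, and Csf2, the growth factor GM-CSF, from 3.27, 3.49 and 2.73 CPM to 29.8, 30 and 27.9 CPM. Against PBS females the log2 difference of aGC males was 2.85 ± 0.09 for Ifng, 1.68 ± 0.09 for Il4 and 2.44 ± 0.07 for Tnf. For Csf2 it was 1.85 ± 0.10, beside 3.21 ± 0.11 within males.

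Other cytokine genes rose from levels near the limit of detection. Lif, a cytokine of the interleukin 6 family, was at 0.138, 0 and 0.179 CPM after PBS and 22.4, 26.6 and 21.8 CPM after aGC. Il2, the T cell growth factor, went from between 0.0447 and 0.499 CPM to between 4.11 and 5.2 CPM, and Il21, which supports B cells, from between 0.0554 and 0.277 CPM to between 4.26 and 7 CPM. Il13 and Il10 were called higher but reached only 0.466 to 0.665 and 0.2 to 0.367 CPM. Il17a had no count after PBS and 9 counts over the 3 aGC libraries and was not tested, and Il17f was at 0.166 to 0.323 CPM after PBS and 0 to 0.369 CPM after aGC (edgeR adjusted p = 0.58). Interleukin 17 genes were therefore close to the limit of detection in both groups. PBS females had 2.88 CPM of Lif. Against them the log2 difference of aGC males was 3.02 ± 0.22 for Lif and 4.03 ± 0.45 for Il21. Both were smaller than within males (7.63 ± 0.34 and 4.76 ± 0.47). For Il2 it was larger, 4.66 ± 0.49 beside 3.77 ± 0.45 within males.

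Of 10 chemokine ligand genes tested, 6 were higher and 2 (Ccl5 and Cxcl2) lower. Genes named in brackets after a count of 5 or fewer were picked after their values were seen. Ccl1, a ligand of CCR8 made by activated T cells, rose from 5.67, 5.26 and 5.28 CPM to 364, 356 and 404 CPM, 69.3-fold (log2 change 6.11 ± 0.13, edgeR adjusted p = 8.12e-21). Ccl4, an inflammatory chemokine, rose from 2.77, 2.38 and 3.13 CPM to 135, 126 and 143 CPM. Xcl1, the ligand of XCR1 on cross-presenting dendritic cells, rose from 46.2, 43.9 and 51.6 CPM to 199, 193 and 214 CPM. No PBS library came near the aGC libraries for these 3 genes. Ccl3 reached 5.06 to 5.51 CPM from 0.554 to 1.03 CPM. Cxcl10, an interferon-induced chemokine, reached 8.37 to 10.6 CPM from 0.402 to 0.599 CPM, but PBS females already had 7.69 CPM, and the difference of aGC males from them was not called (0.30 ± 0.14 on the log2 scale, edgeR adjusted p = 0.0795). Ccl5, a chemokine of memory and effector cells, fell from 75.8, 69.3 and 73.3 CPM to 38.1, 35.4 and 43.2 CPM.

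Of 16 ligand and receptor genes of the TNF superfamily, 12 rose and 3 fell (Tnfsf8, Tnfsf10 and Cd27). The receptor 4-1BB (Tnfrsf9), a co-stimulator, went from 103, 95 and 92.6 CPM to 472, 535 and 479 CPM, and its ligand Tnfsf9 from between 7.82 and 8.81 CPM to between 42.5 and 46.1 CPM. The receptor OX40 (Tnfrsf4) went from between 27.6 and 29.3 CPM to between 103 and 121 CPM and its ligand Tnfsf4 from between 1.66 and 2.68 CPM to between 19.9 and 22.2 CPM, so ligand and receptor of both pairs rose in the same libraries. Tnfsf11, which encodes RANKL, rose from between 34.3 and 37.5 CPM to between 139 and 148 CPM. Cd40lg, by which T cells license B cells and dendritic cells, was at 235 to 248 CPM after PBS and 233 to 246 CPM after aGC and was not called, but was lower in aGC males than in PBS females (-0.38 ± 0.05).

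**Figure D3:**
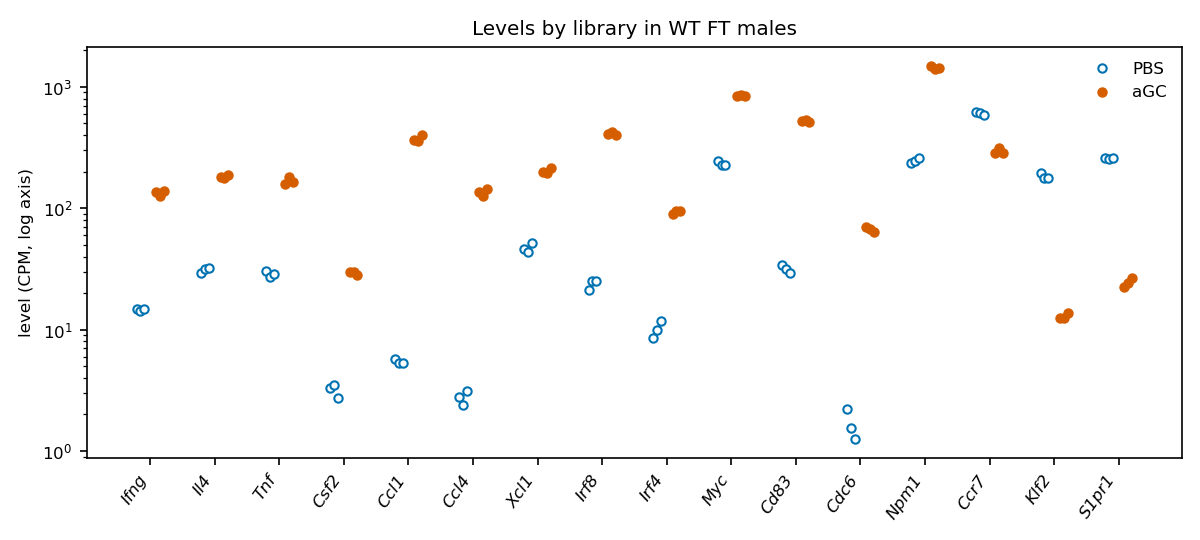
Levels (CPM, log axis) of 16 genes in the 3 PBS (open circles) and 3 aGC (filled circles) libraries of WT FT males; each circle is 1 library. From Ifng to Npm1 the aGC libraries lie above the PBS libraries, and for Ccr7, Klf2 and S1pr1 below them.

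Transcription factor genes that T cell receptor signals induce mostly rose, 23 of 33 with 7 lower and a median of 1.07. Irf8, of the interferon regulatory factor family (chr8:120736358-120756694), stood at 21.3, 25.1 and 25 CPM after PBS and 406, 421 and 401 CPM after aGC, 17.2-fold higher (log2 change 4.10 ± 0.09, edgeR adjusted p = 5.53e-21). Its relative Irf4, whose level follows receptor signal strength in T cells, went from 8.58, 9.86 and 11.7 CPM to 90.4, 94.6 and 95.3 CPM. Nr4a1, an immediate early nuclear receptor, went from between 93.6 and 102 CPM to between 433 and 461 CPM and Myc, a driver of cell growth, from between 226 and 243 CPM to between 842 and 856 CPM. Egr2, a zinc finger factor needed for iNKT development, went from between 108 and 112 CPM to between 252 and 257 CPM. All 5 were higher in every aGC library. Jun, an AP-1 subunit, fell from 262, 269 and 232 CPM to 42, 34.9 and 38.8 CPM (log2 change -2.72 ± 0.10, edgeR adjusted p = 1.68e-16). It rose in WT FT females (1.42 ± 0.10), and against PBS in WT FT females the aGC males differed by -0.96 ± 0.10.

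Genes of signal feedback did not move one way, with 12 of 30 higher and 15 lower. In the comparison of aGC males with PBS females, where 28.2% of all tested genes were called higher and 32.0% lower, 13 of them were higher and 11 lower. Rgs16, a regulator of G protein signals, rose by 2.90 ± 0.10 on the log2 scale, and Spry1 and Spred1, which restrain Ras signals, by 2.41 ± 0.10 and 2.40 ± 0.24. Socs3, the inhibitor of interleukin 6 type signals, fell from 112, 106 and 100.3 CPM to 17.2, 19.9 and 15.8 CPM.

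Among surface genes of activation, 10 of 16 rose and 5 fell (Cd28, Cd38, Cd86, Cd6 and Cd5). Cd83, which stabilises surface MHC class II (chr13:43784775-43803132), stood at 33.8, 31.4 and 29.4 CPM after PBS and 520.4, 535 and 512 CPM after aGC, 16.6-fold higher (log2 change 4.05 ± 0.07, edgeR adjusted p = 3.72e-23). Cd69, an early activation marker that also holds cells in tissue, went from 86.5, 91.4 and 94.9 CPM to 362, 352 and 365 CPM. Il2ra, the alpha chain of the interleukin 2 receptor, went from between 45.9 and 50 CPM to between 193 and 217 CPM. The groups did not overlap in any of these. Of 12 co-inhibitory receptor genes 6 rose and 5 fell (Tigit, Cd244a, Cd96, Vsir and Nt5e): Pdcd1, which encodes PD-1, went from between 72.1 and 78.4 CPM to between 159 and 183 CPM, Lag3 from between 0.415 and 0.805 CPM to between 6.06 and 8.42 CPM, and Cd96 fell from between 412 and 438 CPM to between 187 and 207 CPM.

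Subset markers moved both ways. Of 22 iNKT1 markers 9 rose and 10 fell (median -0.25). Of 12 iNKT2 markers 5 rose (Il4, Icos, Plac8, Il13 and Irf4) and 4 fell (Zbtb16, Il17rb, Cd4 and Il6ra), with a median of 0.12. Beside 31.7% and 34.9% of all tested genes, these counts are not read as a result about either list. Of 21 iNKT17 markers 3 rose (Il23r, Il1r1 and Maf) and 14 fell (median -0.53). Tbx21 stood at 294, 305 and 276 CPM after PBS and 414, 417 and 424 CPM after aGC (log2 change 0.52 ± 0.05, edgeR adjusted p = 2.01e-09), but aGC males were below PBS females (-0.27 ± 0.05). Gata3 was at 164, 183 and 165 against 198, 152 and 194 CPM, overlapped between the groups and was not called. Zbtb16, the factor that gives iNKT cells their innate character, fell from 58.7, 57.6 and 54.1 CPM to 40.3, 42 and 38 CPM, and was also lower than in PBS females (-0.60 ± 0.09).

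The iNKT17 markers that fell included Il7r, the interleukin 7 receptor, from 388, 407 and 444 CPM to 145, 132 and 149.8 CPM, and Itgb7, the beta chain of gut homing integrins, from 1846, 1851 and 1729.9 CPM to 554, 569 and 513 CPM. Il23r, the interleukin 23 receptor, rose from between 1.83 and 3.53 CPM to between 8.46 and 9.26 CPM, but aGC males were below PBS females (-0.57 ± 0.17, edgeR adjusted p = 0.00609). Of 11 follicular helper markers 10 rose and none fell: Cxcr5, the receptor for entry into B cell follicles, went from 8.67, 11.4 and 12.3 CPM to 31.6, 37.5 and 30.2 CPM, and Bcl6, the defining factor of these cells, from 4.33, 4.38 and 5.63 CPM to 9.24, 7.46 and 6.24 CPM. The aGC libraries were the higher ones for both, but Bcl6 was not called without aGC replicate 1 (log2 change 0.52).

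Cytotoxic genes split, 10 of 15 higher and 5 lower (Gzmc, Gzmk, Gzmm, Prf1 and Ctsw). Gzmb, which encodes the protease granzyme B, rose from 1.34, 1.11 and 1.56 CPM to 26.7, 29.1 and 22.7 CPM. Against PBS females, at 6.53 CPM, the log2 difference of Gzmb was 2.00 ± 0.18, beside 4.27 ± 0.21 within males. Prf1, the pore former perforin, fell from 66.2, 65.6 and 60.6 CPM to 17.4, 18.7 and 16.5 CPM, and Gzmk had 93 counts over the PBS libraries and none over the aGC libraries. Of 17 NK receptor genes 3 rose (Klra5, Klrg1 and Ncr1) and 9 fell, with Klrd1 going from between 39.7 and 45.8 CPM to between 16.5 and 20.5 CPM. Genes of the TCR complex and of the signal steps next to it were mostly lower, 22 of 28 with 2 higher (Zap70 and Lat) and a median of -0.53. Among them, the log2 change was -1.46 ± 0.04 for the adhesion receptor Cd2 and -0.93 ± 0.09 for the phospholipase Plcg1. Trav11 went from 540.5, 528 and 519 CPM to 404, 429.6 and 419 CPM, lower after aGC although its share among alpha chains was higher. Of 8 genes of SLAM receptors and their signal partners, a pathway that iNKT development needs, 6 rose and 2 fell (Cd84 and the kinase Fyn). The largest rise among them was that of Slamf7 (62.1 to 66.7 against 162 to 182 CPM). Against PBS females 3 of the 8 were higher and 5 lower in the aGC males, with a median of -0.17 beside 0.19 within males.

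Genes of DNA replication were higher in 29 of 30 cases, with a median of 2.52, and Pola1 was not called. The promoters of Orc1 and of Mcm6 (the latter chosen after its values were seen) are shown because they hold the site TTTNGCGC of E2F factors, which switch on genes for S phase. The windows run from 250 bases before to 50 after the annotated start (RefSeq, GRCm38.p6), 5′ to 3′ on the gene's strand, with matches on either strand in capitals. They are chr4:108579204-108579503 (plus strand) for Orc1 and chr1:128359656-128359955 (minus strand, 2 of its 3 matches overlapping) for Mcm6.
Orc1: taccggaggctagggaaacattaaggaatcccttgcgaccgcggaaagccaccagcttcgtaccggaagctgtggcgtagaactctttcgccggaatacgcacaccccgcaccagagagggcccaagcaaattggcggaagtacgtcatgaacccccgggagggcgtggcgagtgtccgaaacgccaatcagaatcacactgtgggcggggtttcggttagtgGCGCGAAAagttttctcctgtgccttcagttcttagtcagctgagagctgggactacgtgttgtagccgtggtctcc
Mcm6: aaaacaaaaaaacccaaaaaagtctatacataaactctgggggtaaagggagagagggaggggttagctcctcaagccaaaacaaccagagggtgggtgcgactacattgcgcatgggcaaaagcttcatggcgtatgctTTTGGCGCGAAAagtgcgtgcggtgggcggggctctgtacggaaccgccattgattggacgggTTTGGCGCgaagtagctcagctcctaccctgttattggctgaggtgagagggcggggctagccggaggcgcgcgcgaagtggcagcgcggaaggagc
The match of Orc1 begins 27 bases before the start and those of Mcm6 110, 106 and 47 bases before. Of 24 replication genes with a window, 9 held the motif (37.5%), against 2.75% of the 10572 tested genes and 1.57% of all 27025 genes with one. A match describes letters, not binding. The E-box CACGTG, a palindrome bound by MYC, was in 6 of 20 ribosome biogenesis genes (30.0%), against 11.5% of tested genes.

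Orc1, a subunit of the complex that marks replication origins, stood at 0.507, 0.222 and 0 CPM after PBS and 22.6, 23.5 and 20.6 CPM after aGC. Cdc6, which loads the replicative helicase, went from 2.21, 1.55 and 1.25 CPM to 70.2, 67.5 and 64.2 CPM, 40.2-fold (log2 change 5.32 ± 0.14, edgeR adjusted p = 2.48e-19). Mcm2 and Mcm6, subunits of that helicase, went from between 97.3 and 105 CPM to between 559 and 619 CPM and from between 250.4 and 265 CPM to between 995 and 1049.9 CPM. Every aGC library was above every PBS library for these genes. Mitosis genes were higher in 15 of 20 cases and lower in 1 (Tpx2): the mitotic kinase Cdk1 went from between 0.671 and 1.43 CPM to between 19.8 and 26.1 CPM, while Mki67, the usual marker of cycling cells, reached only 5.13 to 8.05 CPM from 1.88 to 2.26 CPM. Against PBS in WT FT females, 29 replication genes were higher too, with a median of 1.84. PBS females had 9.2 CPM of Cdc6. The log2 difference from them was 2.87 ± 0.12 for Cdc6, 3.46 ± 0.40 for Orc1 and 2.16 ± 0.22 for Cdk1. Within males these were 5.32 ± 0.14, 6.48 ± 0.53 and 4.38 ± 0.26. For Mcm2 and Mcm6 it was 1.86 ± 0.05 and 1.63 ± 0.04, beside 2.52 ± 0.05 and 1.97 ± 0.04 within males.

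Genes for making proteins and energy rose at high levels. Of 25 ribosome biogenesis genes 24 were higher (median 1.55). Npm1, the nucleolar chaperone nucleophosmin, went from 237, 244 and 258 CPM to 1493, 1407 and 1434 CPM, and Ncl, nucleolin, from between 442 and 463 CPM to between 2061 and 2063 CPM. Of 44 ribosomal protein genes, which have many near-identical pseudogenes that can share reads, 40 were higher, by a smaller median of 0.73, and of 44 oxidative phosphorylation genes 41 (median 0.71), among them cytochrome c (Cycs, 44 to 48 against 173 to 186 CPM).

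Of 22 glycolysis genes 15 were higher and 5 lower (Slc2a3, Hk1, Pfkm, Ldhb and Pdk1). Hk2, the hexokinase induced in activated T cells, went from 0.184, 0.222 and 0.313 CPM to 22.2, 26.7 and 22.5 CPM, while the glucose transporter Slc2a1 was not called (52.4 to 56.1 against 57.5 to 67.2 CPM, and 0.44 ± 0.10 on the log2 scale, called higher, against PBS females). Of 24 amino acid and one-carbon genes 20 were higher. Shmt1, which feeds serine into the folate cycle, went from 16, 16.2 and 14.8 CPM to 235, 256 and 247 CPM, and Odc1, the first enzyme of polyamine synthesis, from between 79.4 and 84.9 CPM to between 408 and 443 CPM. Sterol genes rose in 13 of 22 cases and genes of the unfolded protein response in 15 of 22, each with 5 lower. Of 22 heat shock and chaperonin genes 18 rose, among them the mitochondrial chaperonin Hspd1 (163 to 174 against 984 to 1069 CPM), while Hspa1b, whose reads can be shared with its near-identical copy Hspa1a, fell from between 13.6 and 15.3 CPM to between 2.13 and 2.42 CPM within males. Against PBS females, at 0.982 CPM, Hspa1b was higher in the aGC males (1.17 ± 0.25, edgeR adjusted p = 0.000326). Proteasome subunit genes were higher in 27 of 30 cases, and the interferon-induced subunit Psmb8 was not called (1330.4 to 1347 against 1303 to 1376 CPM, and -0.16 ± 0.05 on the log2 scale, called lower, against PBS females).

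**Figure D4:**
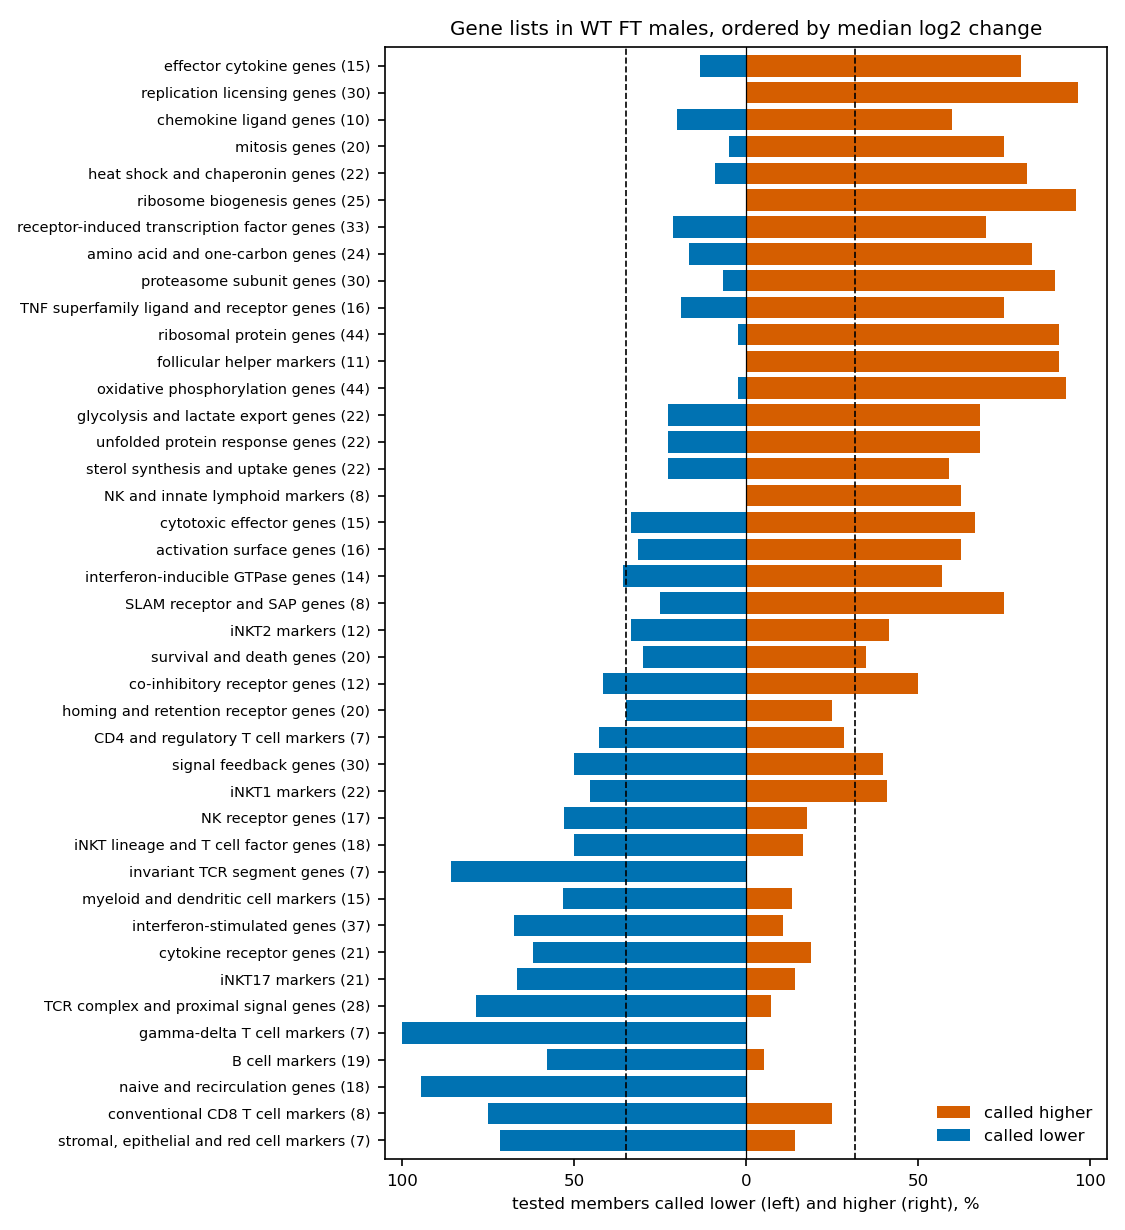
Share of the tested members of 41 gene lists called higher (orange, right) and lower (blue, left) after aGC in WT FT males, in percent, with the number tested after each name; dashed lines mark the 31.7% and 34.9% of all tested genes called higher and lower. The replication list has 29 of 30 members called higher, and the naive and recirculation list 17 of 18 called lower.

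Of 20 survival genes 7 were higher and 6 lower, beside 31.7% and 34.9% of all tested genes, so these counts are not a result about the list. Bcl2l11, which encodes the death inducer BIM, rose from between 14.3 and 18.8 CPM to between 91.5 and 103 CPM, and Bcl2l1, which encodes the protective BCL-XL, from between 61.4 and 62.8 CPM to between 184 and 192 CPM. Bcl2, also protective, fell from 105, 109 and 119 CPM to 38.6, 33.4 and 39.3 CPM.

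Genes induced by type I interferon were mostly lower, 25 of 37 with 4 higher (Isg15, Ifi44, Bst2 and Ifi27l2a) and a median of -0.47. Usp18, a negative regulator of the interferon receptor, fell from 69.8, 70 and 72.7 CPM to 28.2, 25.1 and 26.9 CPM (log2 change -1.41 ± 0.06, edgeR adjusted p = 5.78e-16), and the RNA sensor RIG-I (Ddx58) from between 128 and 144 CPM to between 35.4 and 45.7 CPM. Usp18 rose in WT FT females (0.41 ± 0.05) and in KO FT males (0.61 ± 0.06). GTPase genes that interferon gamma also induces rose in 8 of 14 cases and fell in 5 (Gbp7, Gbp8, Gbp9, Irgm2 and Tgtp2); they lie in families of similar copies, between which estimated counts can be split. Gbp3 went from 24.7, 24.6 and 27.7 CPM to 82.4, 84.8 and 79.2 CPM and Gbp2 from between 119 and 123 CPM to between 226 and 256 CPM, while Irgm2 fell from 40.9, 39.7 and 38.5 CPM to 18.1, 19.1 and 17 CPM. Against PBS in WT FT females, 32 of the 37 interferon genes and 10 of the 14 GTPase genes were lower in the aGC males, with Gbp3 higher (0.86 ± 0.08).

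The promoters of 2 GTPase genes that rose (Gbp2, Gbp3) and of 2 genes that fell (Irgm2 and the antiviral factor Samd9l, 37.9 to 46.3 against 11.3 to 15.8 CPM) are shown because each holds GAAANNGAA, a core of the interferon response element, searched on both strands and given in capitals, in windows as above. They are chr3:142620413-142620712 for Gbp2, chr3:142559794-142560093 for Gbp3 (2 overlapping matches; a second annotated window of Gbp3, chr3:142560106-142560405, holds none), chr11:58214727-58215026 for Irgm2, all on the plus strand, and chr6:3399522-3399821 on the minus strand for Samd9l.
Gbp2: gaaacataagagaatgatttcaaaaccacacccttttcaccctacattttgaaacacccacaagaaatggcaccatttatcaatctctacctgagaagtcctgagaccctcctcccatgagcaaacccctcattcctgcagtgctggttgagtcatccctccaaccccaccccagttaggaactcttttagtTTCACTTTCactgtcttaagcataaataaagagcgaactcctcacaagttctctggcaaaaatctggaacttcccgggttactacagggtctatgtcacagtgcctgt
Gbp3: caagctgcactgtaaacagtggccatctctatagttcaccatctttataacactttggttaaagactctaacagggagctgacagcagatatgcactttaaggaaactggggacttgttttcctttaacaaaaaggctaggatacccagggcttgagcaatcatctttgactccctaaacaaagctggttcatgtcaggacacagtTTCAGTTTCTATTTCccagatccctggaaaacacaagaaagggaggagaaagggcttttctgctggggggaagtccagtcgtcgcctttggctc
Irgm2: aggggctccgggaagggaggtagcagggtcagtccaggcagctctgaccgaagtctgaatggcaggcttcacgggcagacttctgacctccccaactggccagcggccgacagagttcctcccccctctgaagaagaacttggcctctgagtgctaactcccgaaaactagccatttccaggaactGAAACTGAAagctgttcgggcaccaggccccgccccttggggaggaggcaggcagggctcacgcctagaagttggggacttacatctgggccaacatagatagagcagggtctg
Samd9l: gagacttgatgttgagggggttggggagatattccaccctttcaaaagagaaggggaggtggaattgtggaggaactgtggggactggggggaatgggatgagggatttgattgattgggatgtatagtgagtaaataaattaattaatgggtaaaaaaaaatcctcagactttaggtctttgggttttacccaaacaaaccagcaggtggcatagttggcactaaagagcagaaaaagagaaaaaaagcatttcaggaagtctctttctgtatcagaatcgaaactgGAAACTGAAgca
The matches begin 58 bases before the start in Gbp2, 44 and 38 before in Gbp3, 64 before in Irgm2 and 38 after in Samd9l. The letters were in 18 of 27 interferon-stimulated genes with a window (66.7%, counting a gene once if any of its windows holds them) and in 9 of 9 GTPase genes, against 8.84% of tested genes. They were thus present in genes that rose and in genes that fell.

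Genes of naive and recirculating lymphocytes were lower, 17 of 18 with none higher and a median of -1.50. Klf2, the factor that maintains S1pr1 (chr8:72319033-72321656), fell from 194, 178 and 179 CPM to 12.6, 12.5 and 13.7 CPM, 14.2-fold (log2 change -3.83 ± 0.07, edgeR adjusted p = 1.84e-22). S1pr1, the receptor that lymphocytes follow out of lymph nodes, fell from 259, 253 and 257 CPM to 22.2, 24.3 and 26.7 CPM. Ccr7, the chemokine receptor for lymph node entry, fell from between 590.0 and 619 CPM to between 282 and 311 CPM. The aGC libraries were the lower ones for each gene, without overlap.

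The same genes were read in the other groups. In WT FT females, where Cd8a was higher after aGC, 11 of the 18 were higher and 3 lower, beside 28.6% and 29.8% of all tested genes. In KO FT males, where it was lower, 17 were lower, beside 26.7% of all tested genes. In the comparison of aGC males with PBS females, both low in Cd8a, 14 were lower and 2 higher, with a median of -0.69. There the log2 difference was -2.10 ± 0.06 for S1pr1, -1.94 ± 0.09 for Il7r and -1.54 ± 0.07 for Klf2, beside -3.39 ± 0.06, -1.54 ± 0.09 and -3.83 ± 0.07 within males. Il7r also fell in WT FT females (-2.09 ± 0.09). No test of Cd8a is given for aGC males against PBS females, since that comparison was chosen for low Cd8a in both groups. In it Ccr7 was higher (0.49 ± 0.05), and Dapl1, a gene of naive T cells, was not called (-0.46 ± 0.28, beside -4.63 ± 0.24 within males). Within males, beside 31.7% and 34.9% of all tested genes, homing and retention receptor genes rose in 5 of 20 cases (Ccr8, Cxcr5, Gpr183, Itgb1 and Cd69) and fell in 7. Of these Itgae, the integrin chain CD103, fell from between 62.1 and 66.2 CPM to between 10.7 and 11.5 CPM within males and was not called against PBS females (-0.08 ± 0.11), and Cxcr6, which retains iNKT cells in tissue, was not called within males (1588 to 1733 against 1716 to 1837 CPM). Cxcr6 was lower in the aGC males than in PBS females (-1.19 ± 0.06, edgeR adjusted p = 1.84e-14) and fell after aGC in females (-1.66 ± 0.06).

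**Figure D5:**
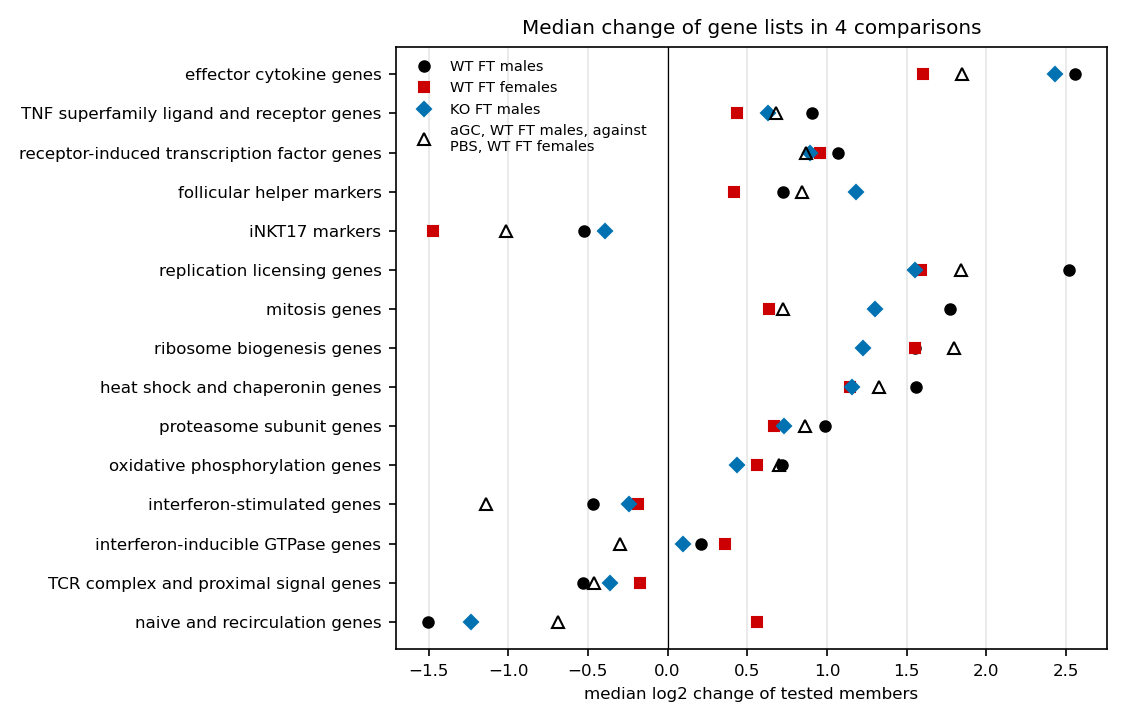
Median log2 change of the tested members of 15 gene lists for aGC against PBS in WT FT males (black circles), WT FT females (red squares) and KO FT males (blue diamonds), and for aGC in WT FT males against PBS in WT FT females (open triangles, which share the aGC libraries with the circles). The median of the naive and recirculation list is -1.50 in WT FT males and 0.56 in WT FT females, and that of the replication list 2.52 and 1.59.

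Markers of other cells were read in the same 6 libraries. The 21 B cell markers summed to 1220 to 1266 CPM after PBS and 592 to 666 CPM after aGC, most of it Ighm (1014 to 1048 against 441 to 497 CPM), with Pax5 at 0 counts in both groups and 12 markers under 5 CPM in both. The 19 myeloid and dendritic markers summed to 183 to 187 CPM and 156 to 161 CPM, most of it Cst3, with 15 under 5 CPM in both groups and Clec9a at 0 counts in both. Gamma-delta T cell markers summed to 803 to 861 CPM and 581 to 595 CPM, most of it the gamma chain genes Tcrg-C1, Tcrg-C2 and Tcrg-C4. The delta chain gene Trdc averaged only 5.11 CPM after PBS and 1.75 CPM after aGC. All 7 tested markers of this list fell. NK and innate lymphoid markers summed to 1459 to 1504 CPM and 2013 to 2020 CPM, led by Nkg7 and Tbx21, which iNKT1 cells also express. The 15 stromal, epithelial and red cell markers summed to 81.0 to 95.4 CPM and 47.4 to 62.7 CPM, most of it Pecam1, with 13 under 5 CPM in both groups and Cdh5 at 0 counts in both. Of its 7 tested members 5 fell and 1 (Epcam) rose, with a median of -2.25, and the hemoglobin genes Hba-a1 and Hba-a2, chosen after their values were seen, had 75 and 239 counts over the PBS libraries and 0 and 1 over the aGC libraries. Of 8 conventional CD8 T cell markers 2 were higher (Crtam and Eomes) and 6 lower, counting Cd8a, whose fall was known beforehand. Crtam, also made by other activated T cells, rose from between 21.2 and 21.7 CPM to between 94.5 and 99.4 CPM. Eomes averaged 8.75 CPM after PBS and 32.7 CPM after aGC. Cd4 fell from 159, 156 and 152 CPM to 89.9, 115 and 95.9 CPM. The part of these cells in the changes above was not tested.

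By the test of the difference itself, the response of WT FT males differed from that of WT FT females in 7609 genes, 24.2% of the tested genes with a higher and 23.5% with a lower change in males. It differed from that of KO FT males in 6216 genes, 18.8% higher and 20.2% lower. Of the genes higher in WT FT males, 58.7% were also called higher in females (65.0% of the females' own calls) and 62.9% in KO FT males (74.4% of theirs). Among all tested genes these shares were 28.6% and 26.8%. A further 13.0% of the genes higher in WT FT males were called lower in females and 5.2% in KO FT males. Of the genes lower in WT FT males, 48.8% were lower in females (57.1% of the females' own calls) and 54.0% in KO FT males (70.7% of theirs). Among all tested genes 29.8% and 26.7% were lower. Another 12.9% of the genes lower in WT FT males were called higher in females and 6.6% in KO FT males. Of the replication genes, 20 of 30 rose more in WT FT males than in females and 3 less, and 23 rose more than in KO FT males and 1 less.

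Single genes showed where the responses parted. For Cd83 and Cd69 the difference from females was not called, at 0.17 ± 0.09 and -0.10 ± 0.07 on the log2 scale. The difference from KO FT males was called for both, at -0.68 ± 0.09 for Cd83 and 0.33 ± 0.07 for Cd69. Ifng rose by 2.62 ± 0.09 in females and 2.43 ± 0.10 in KO FT males, and the response of WT FT males was larger by 0.56 ± 0.13 (edgeR adjusted p = 0.000765) and 0.75 ± 0.13 (edgeR adjusted p = 9.01e-05). Il4 rose by 1.60 ± 0.12 more than in females, whose mean level was 56.7 CPM after PBS and 109.9 CPM after aGC. Females thus started above the PBS males and ended below the aGC males. Ccl1 differed by -2.53 ± 0.30, with females at 0.319 CPM after PBS and 167 CPM after aGC. Gzmb rose by 3.94 ± 0.27 more in males, and in females its mean levels of 6.53 CPM after PBS and 8.21 CPM after aGC were not called apart. The interferon-induced Mx1 fell in WT FT males (9.37 to 11 against 3.62 to 5.95 CPM) and rose in KO FT males (means of 0.104 against 12.6 CPM).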

How the data were processed

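The authors deposited a table of estimated counts per gene, whole numbers in 24 columns, made with kallisto on GRCm38 (mm10) per the submitters' processing notes; the sources used here give no version or settings. Libraries were made with Nextera XT per the labels' protocols, which does not mark strand, so overlapping genes cannot be told apart. Gene IDs were named with the GENCODE annotation of that build. Groups came from the labels. edgeR 4.0.16 (R 4.3.3; TMM, filterByExpr with a minimum count of 10 and total of 15, quasi-likelihood test, Benjamini-Hochberg over 15953 genes, threshold 0.05, two-sided) was fitted to all 24 libraries with 8 group means; contrasts gave each comparison. SEs were taken from the F statistic (log2 change over its root). Scripts were tested on simulated data.

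The comparison and the 41 gene lists were chosen with earlier results of these data known. Named genes are the 12 largest rises and falls at 10 CPM or more, up to 5 called members of a list at 5 CPM or more and up to 2 not called, any member of lists of up to 14, 40 set names, and up to 6 each way that differed most between responses; exceptions are marked, and some genes the rule names are not reported here. Alternatives were another scaling, DESeq2 1.42.0, no filter, a test against a 2-fold change, a replicate block, a fit on the 6 libraries, and each library left out.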

Additional observations from a re-analysis of the deposited data

Results flagged for a closer look

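The genes below are picked from those given with values above. They were called in opposite directions in WT FT males and in another stratum, with the test of the difference past the threshold (edgeR, adjusted p of 0.05). Among all tested genes, 656 higher and 718 lower in WT FT males went the opposite way in WT FT females by the same rule. For KO FT males these counts were 263 and 365. Among genes of recirculation and T cell markers, the log2 response of WT FT males minus that of WT FT females was -5.48 for Klf2, -4.01 for S1pr1, -2.54 for Ccr7, -8.27 for Dapl1, -4.16 for Itgae, -10.84 for Cd8b1, -6.71 for Foxp3 and -1.41 for Cd4. Each fell in males and rose in females, as did Cd8a. The same difference was -4.15 for Jun, -2.83 for Socs3, -2.32 for Prf1, -5.57 for Hspa1b, -1.82 for Usp18 and -17.28 for Ggt1, which also fell in males and rose in females. Ggt1 had no count in the aGC males, so its fitted value depends on the prior count. Tbx21 and Il23r rose in males and fell in females, with differences of 0.80 and 2.59. Against KO FT males the difference was -2.02 for Usp18, -3.49 for Hspa1b and -8.01 for Mx1, all of which fell in WT FT males and rose in KO FT males. The part of conventional T cells in these differences was not tested.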

How the results depend on the processing

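Against a 2-fold change, 1625 genes were higher and 1711 lower after aGC in WT FT males, 894 and 1058 differed from WT FT females, 376 and 695 from KO FT males, and 1235 and 1162 between aGC males and PBS females; this test asks for a larger change. All other alternatives kept these 8 counts within 1.5 times. Leaving out 1 library gave 4723 to 4819 higher and 5215 to 5308 lower in WT FT males, 3608 to 4010 and 3237 to 3577 for the difference from females, 2410 to 2944 and 2961 to 3378 for that from KO FT males, and 4069 to 4270 and 4762 to 5031 between aGC males and PBS females. Replicate numbers did not pair the libraries (correlations of -0.05 to 0.03), and with the replicate block 4925 were higher and 5389 lower in WT FT males. Of 94 genes given with values, 13 were no longer called against a 2-fold change, Bcl6 was not called without aGC replicate 1 (0.52), Cxcr6 and Slc2a1 were called higher when only the 6 libraries were fitted (0.13 and 0.21), and none reversed. Without the filter 9 of 41 list medians moved by more than the spread between libraries, that of effector cytokines from 2.55 to 3.02, and with DESeq2 size factors none did. Depth limits genes near 0.2 CPM, such as Il10 and Il17f.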
